A study of Drosophila melanogaster with 4 samples.

Results

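CG11893, a gene of the ecdysteroid kinase-like family, and Jhbp5, a gene named for juvenile hormone binding, were followed in adult female Drosophila melanogaster sprayed with an extract of black pepper (Piper nigrum) seed. They were taken by symbol, as CG11893 and every gene whose symbol starts with Jhbp, from the genes that the array annotation names alone. This gave 2 of 2377 such genes, each measured by 2 spots per array. Both were picked out because their ratios were high in these same data, so their values are a description and carry no test.

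The extract-treated flies were Oregon-R females given 2 mL of an ethyl acetate seed extract at 0.9 mg/mL in 99% ethanol as a topical spray from a Potter's tower, which spreads a fine mist evenly. The control flies were Oregon-R females given 2 mL of 99% ethanol alone in the same way, so ethanol was common to both. All were 10 to 20 days past adult emergence, were kept at 60% relative humidity under 16 h of light and 8 h of dark, and were sampled after 4 h, with a temperature of 23 °C given for 3 of the 4 arrays. Each RNA came from a pool of about 240 females, and the extract and control RNAs of replicates 1 and 3 were set against each other on 2 arrays per replicate with the Cy3 and Cy5 dyes exchanged, so n = 2 pools of treated flies, each with its control pool.

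Each value is a log2 ratio, extract over ethanol, where 1 is a 2-fold difference and 0 is none. Base 2 is itself an assumption, and every fold below rests on it. The deposited ratios do not say which channel is on top, so extract on top is an assumption, not a settled fact, and the opposite choice would turn round all signs given here. If the ratios had been deposited by dye, the repeated ratios below would be dye effects, which these 4 arrays cannot tell apart from an effect of the extract. Correlations between arrays over the 16896 spots were weak, at Pearson values of 0.0187 to 0.0881. Between the 2 pools, over the 2377 genes with 1 symbol, the Pearson value was 0.175. A ratio gives no expression level, and in whole-fly RNA fewer cells of a type and less RNA per cell cannot be told apart.

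Insect moulting and reproduction are steered by ecdysteroids, steroid hormones that act through the nuclear receptor EcR, and by juvenile hormone, a sesquiterpenoid. The ecdysteroid kinase-like family is named after an enzyme of the silkworm that phosphorylates ecdysteroids into inactive conjugates, and members in flies have also been discussed as enzymes that phosphorylate plant toxins. Juvenile hormone-binding proteins are carriers of lipophilic ligands, first known from the blood of moths, where they protect the hormone from breakdown. In flies the related protein takeout is tied to feeding and the circadian clock. The particular substrate of CG11893 and the ligand of Jhbp5 are not given here.

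CG11893 stood close to 2-fold on every array. With the extract in Cy3 its log2 ratio was 1.02 in replicate 1 and 1.13 in replicate 3, and with the extract in Cy5 it was 1.12 in replicate 1 and 1.09 in replicate 3. No array stood apart, and neither dye orientation nor pool gave consistently higher values. The pools lay at 1.07 and 1.11, a mean of 1.09 ± 0.03 (SD, n = 2 pools), which is 2.13-fold. The standard error from limma, which borrows spread from all features, was wider at 0.15.

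Jhbp5 lay above 0 on every array but was far more uneven. With the extract in Cy3 its log2 ratio was 0.69 in replicate 1 and 0.57 in replicate 3. With the extract in Cy5 it was 1.21 in replicate 1 and 0.39 in replicate 3. The Cy5 array of replicate 1 was the high one and that of replicate 3 the low one, so both extremes came from the same dye orientation. Both arrays of replicate 1 lay above both arrays of replicate 3. The pools lay at 0.95 and 0.48, a mean of 0.72 ± 0.33 (SD, n = 2 pools; limma standard error 0.17), which is 1.64-fold. Replicate 1 was thus at 1.94-fold and replicate 3 at 1.39-fold.

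The single spots give these values in more detail. For CG11893 the 8 spot values, 2 on each of 4 arrays, ran from 0.96 to 1.29 with a median of 1.09, and 6 of 8 were at 1 or more. The paired spots differed by 0.10 on the Cy3 array and 0.33 on the Cy5 array of replicate 1, and by 0.02 on the Cy3 array and 0.01 on the Cy5 array of replicate 3. Over the 2089 genes with 2 spots the median difference lay between 0.173 and 0.285 on the 4 arrays, so the spots of CG11893 agreed more closely than the median on 3 of them.

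For Jhbp5 the 8 spot values ran from 0.08 to 1.24 with a median of 0.65, and 2 of 8 were at 1 or more. Both of those were on the Cy5 array of replicate 1, where the spots read 1.19 and 1.24. On the Cy5 array of replicate 3 the spots read 0.69 and 0.08, a difference of 0.61 that 81.2% of genes with 2 spots did not exceed. The lowest array value of Jhbp5 therefore averaged a spot like those on the Cy3 arrays with 1 spot near 0. All 8 spot values were above 0 for both genes, which 57 of the 2089 genes showed (2.73%). By the lowest of its 8 values CG11893 ranked 1 and Jhbp5 ranked 35 among the 2089 genes. Nothing is read from this share or these ranks, since the members were chosen on the same ratios and the 8 values repeat 2 pools.

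**Figure D1:**
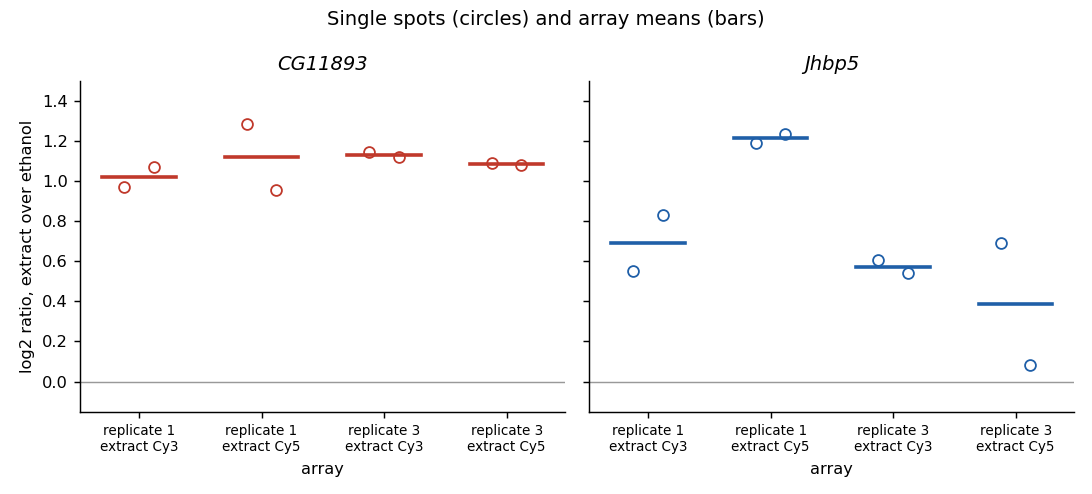
Log2 ratio of extract over ethanol (vertical axis) on each of the 4 arrays (horizontal axis) for CG11893 on the left and Jhbp5 on the right. Circles are single spots and bars their mean on an array; the spots of CG11893 stay between 0.96 and 1.29, and those of Jhbp5 run from 0.08 to 1.24.

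Among the 2377 genes with 1 symbol, CG11893 ranked 4 from the top by the mean of the pools and Jhbp5 ranked 13, the top 0.168% and 0.547%. Array by array the ranks of CG11893 were 21 and 15 in replicate 1 and 3 and 9 in replicate 3, with the Cy3 array given first for each pool. Those of Jhbp5 were 66 and 13 in replicate 1 and 55 and 193 in replicate 3. CG11893 was among the 21 highest genes on every array, and the place of Jhbp5 varied more.

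Next to CG11893 in rank stood the flight-muscle actin Act88F, at 1.13, and the serine synthesis gene aay, at 1.03. EndoA, an endophilin of synaptic vesicle recycling, ranked 2 with a mean of 1.24, but its pools lay at 2.53 and -0.05. Next to Jhbp5 stood Lpin, the phosphatidate phosphatase lipin, at 0.73 and CG13868 at 0.71. In both pools at least 2-fold above 0 were 3 of the 2377 genes (0.126%), CG11893 being 1 of them and Jhbp5 not. Above 0 on 4 of 4 arrays were 210 genes (8.83%), both members included; nothing is read from these counts, since the members were chosen on the same ratios.

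**Figure D2:**
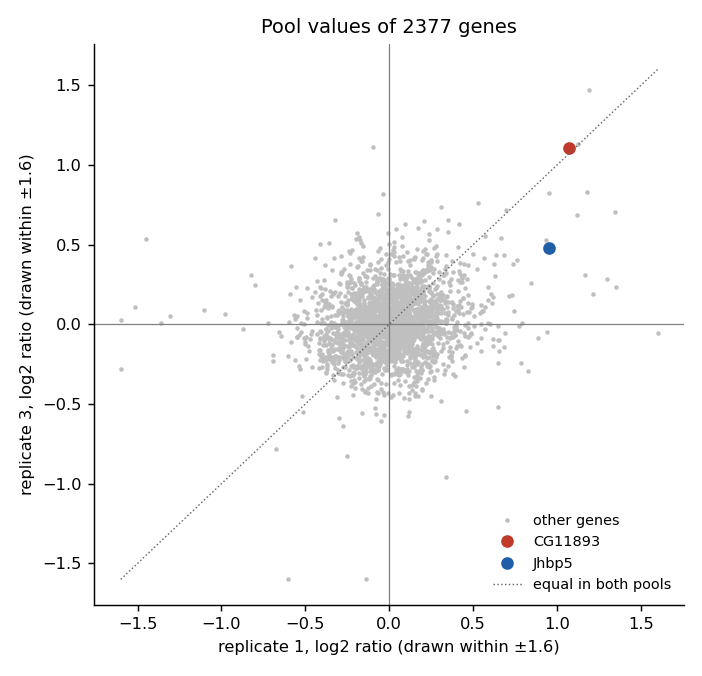
Log2 ratio in replicate 3 (vertical axis) against replicate 1 (horizontal axis) for 2377 genes, with values past the axis limit drawn at it and a dotted line where the pools are equal. CG11893, at 1.07 and 1.11 in replicates 1 and 3, lies by the line, and Jhbp5, at 0.95 and 0.48, lies below it.

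The members also differed in their spread over arrays. The 4 array values of CG11893 covered a range of 0.11, the 29th smallest of 2377 genes, against a median range of 0.52 over all genes. Those of Jhbp5 covered 0.83, the 2000th smallest. The 13 genes ranked at or above Jhbp5 had ranges of 0.11 to 5.32 with a median of 0.77, so Jhbp5 was near the middle of these genes and CG11893 was their lowest. Such a narrow range in a single gene was noticed after its values were seen and was not tested.

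**Figure D3:**
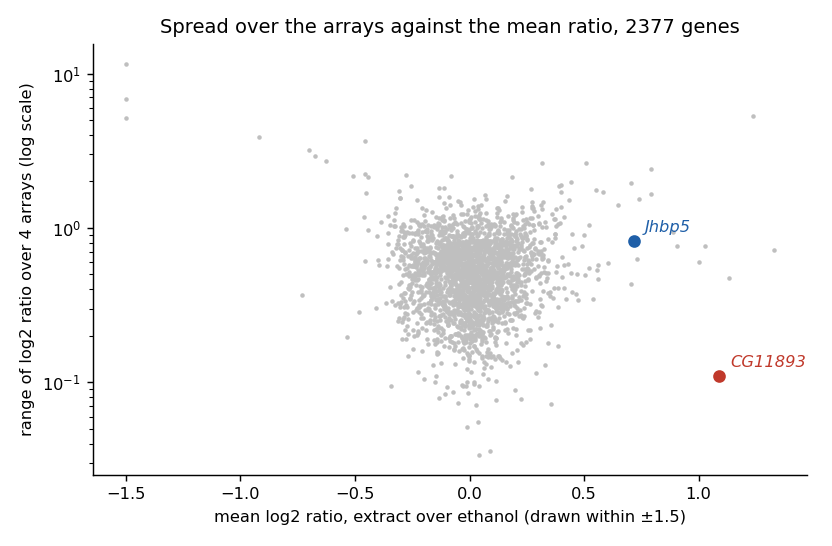
Range of the log2 ratio over the 4 arrays (vertical axis, log scale) against the mean log2 ratio (horizontal axis, values past the limit drawn at it) for 2377 genes. CG11893 stands at the lower right with a range of 0.11 and Jhbp5 at 0.83.

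Both values depend on how the dyes are read. With the sign of the reverse-label arrays turned, as it should be if ratios had been deposited by dye, CG11893 stood at -0.01 and ranked 1304 of 2377, and Jhbp5 stood at -0.08 and ranked 1738. Without any 1 array in the reading as deposited, CG11893 stayed between 1.07 and 1.12 with ranks of 4 to 6. Jhbp5 stayed between 0.59 and 0.85 with ranks of 10 to 27, the lowest of these without the Cy5 array of replicate 1. In replicate 1 alone CG11893 ranked 11 and Jhbp5 ranked 12, and in replicate 3 alone they ranked 4 and 46.

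Genes of like pattern were found by the Euclidean distance of the 4 array values. Nearest to CG11893 were Act88F at a distance of 0.41, CG31904 at 0.50, the insecticide-linked cytochrome P450 Cyp12d1-p at 0.67, the predicted triacylglycerol lipase CG5966 at 0.70 and aay at 0.70. The median gene lay 2.22 away. Cyp12d1-p, the highest of all 2377 genes by mean, had log2 ratios of 1.03 and 1.35 in replicate 1 and 1.75 and 1.19 in replicate 3, with the Cy3 array given first. Act88F had 1.36 and 0.89 in replicate 1 and 1.14 and 1.13 in replicate 3 in the same order. These neighbours share their high mean with CG11893, and their arrays were less even.

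Nearest to Jhbp5 were CG9297 at a distance of 0.45, the Mediator subunit gene MED30 at 0.50, CG13868 at 0.50, muc, a subunit gene of the pyruvate dehydrogenase complex, at 0.56 and the muscle troponin C gene TpnC41C at 0.57. TpnC41C, with pools at 1.17 and 0.31, shared the higher value in replicate 1, and so did muc at 0.73 and 0.18. CG13868 did not, with 0.70 in replicate 1 and 0.72 in replicate 3. The members were not among each other's 5 nearest genes, at a distance of 0.96, which made Jhbp5 the 9th nearest to CG11893 and CG11893 the 42nd nearest to Jhbp5. All distances rest on 4 arrays that were also used to choose the members.

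Both genes lie on chromosome arm 3R. By gene order in RefSeq's Release 6 table, CG11893 stood within a run of 26 neighbouring genes of the ecdysteroid kinase-like list, with 9 of them before it and 16 after it, and CG11893 was the 1 gene of the run measured under its own symbol. All 10 of its nearest genes belong to the list, from CG10514 on one side to CG13659 on the other. Whether its spots also bind transcripts of these related neighbours was not tested. The nearest measured genes were 17 places away on either side, Kdsr, of sphingolipid synthesis, at -0.36 and CG10669 at -0.04.

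Jhbp5 adjoins Jhbp4, which was not measured under its own symbol. Its other neighbour IKKbeta, a kinase of the Imd immune pathway, had a log2 ratio of -0.11, with -0.19 in replicate 1 and -0.02 in replicate 3. GATAe, a GATA factor of the midgut, lies 3 genes away and stood at 0.08, with 0.02 in replicate 1 and 0.14 in replicate 3. These 2 were the measured genes among the 10 nearest to Jhbp5, and neither lay near its 0.72. RefSeq's table holds 14 genes with a Jhbp symbol, of which Jhbp5 was the 1 measured under its own symbol. Throughout, measured means named alone on a spot by the array annotation. Genes called not measured may still lie among the 11078 spots with no symbol or the 152 with several.

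No other measured gene of these families or of either hormone pathway was called in the fit over all features. CG11893 and Jhbp5 were in the same fit, but they were chosen for their high ratios, so its outcome for them is not read. The lack of a call from 2 pools does not show that a gene was unchanged. Over all 13607 features, limma called 6 (0.0441%, Benjamini-Hochberg adjusted p under 0.05), and of the 16 other hormone genes 0 were called. At an unadjusted limma p under 0.05 there were also 0 of these 16, against 91 of all 2377 genes. Their mean log2 ratios ran from -0.30 to 0.33 with a median of -0.09, where the median over all genes was 0.01. Of the 16, 6 lay above 0 and 10 below, where 1225 of all 2377 genes lay above 0 and 1152 below. Without 1 of the arrays 6 of the 16 changed sign, a count that was not made over all genes.

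In the ecdysteroid kinase-like list, 2 of 50 genes were measured. The second, CG9259, stood at -0.27 ± 0.28 (SD, n = 2 pools; limma, adjusted p = 0.756), with pools at -0.08 and -0.47. Its arrays read -0.31 and 0.15 in replicate 1 and -0.14 and -0.79 in replicate 3, with the Cy3 array first. All lay below the lowest array of CG11893, which was chosen for its high ratio. The signs were mixed, so CG9259 gives no direction of its own.

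In the list of juvenile hormone-binding and takeout-like genes, 3 of 28 were measured. Besides Jhbp5 these were CG7953, at -0.28 ± 0.10 (SD, n = 2 pools; limma, adjusted p = 0.74), and CG7968, at -0.18 ± 0.09 (SD, n = 2 pools; limma, adjusted p = 0.819). RefSeq's table gives neither a Jhbp symbol, and their place in the family was not checked by sequence. They were listed from general knowledge and may belong to a related family. Both are counted among the 16 other hormone genes above. CG7953 lay below 0 on 4 of 4 arrays, from -0.50 to -0.12, as did 190 of 2377 genes (7.99%). CG7968 lay below 0 on 3 arrays and at 0.15 on the Cy5 array of replicate 1. No array of either reached the lowest array of Jhbp5, which was chosen for its high ratio.

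For juvenile hormone, 1 of 14 genes of synthesis and breakdown was measured, Hmgs, a synthase of the mevalonate pathway that feeds juvenile hormone. It stood at -0.23 ± 0.10 (SD, n = 2 pools), with both Cy3 arrays above 0, at 0.16 and 0.11 in replicates 1 and 3, and both Cy5 arrays below, at -0.76 and -0.42. This split followed the dye and not the pool, and with the reverse-label arrays turned Hmgs stood at 0.36. Of 12 response genes 3 were measured. The lowest was JhI-21, an amino acid transporter gene induced by juvenile hormone, at -0.30 ± 0.04 (SD, n = 2 pools; limma, adjusted p = 0.709), below 0 on 4 of 4 arrays. Once the reverse-label arrays were turned it stood at 0.20. The transcription factor gene br stood at -0.08, and tai, a coactivator in both hormone pathways, at 0.01.

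For ecdysteroids, 3 of 20 genes of synthesis, transport and breakdown were measured and all had means below 0, with 0 called. Start1, related to cholesterol transporters, stood at -0.17, mld, a zinc finger regulator of ecdysteroid synthesis, at -0.15 and the nuclear receptor gene ftz-f1 at -0.10. The pools of ftz-f1 lay at -0.30 and 0.09 and those of mld at -0.35 and 0.05, on both sides of 0. With the reverse-label arrays turned all 3 had means above 0, at 0.24, 0.01 and 0.17 in the order named.

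Of 38 ecdysteroid response genes 9 were measured, with 0 called and a median of 0.03. The highest was ImpE2, an ecdysone-inducible gene of imaginal discs, at 0.33 ± 0.18 (SD, n = 2 pools; limma, adjusted p = 0.695) and a rank of 81. Its arrays read 0.11 and 0.30 in replicate 1 and 0.62 and 0.31 in replicate 3, with the Cy3 array first. ImpE3, another such gene, stood at 0.17 and the kinase gene Eip63E at 0.18, and these 3 were the response genes above 0 on 4 of 4 arrays. ImpL2, which encodes a secreted antagonist of insulin signalling, stood at 0.15, the ecdysteroid and dopamine receptor DopEcR at 0.03 and the nuclear receptor cofactor rig at -0.05, the 1 response gene below 0 on 4 of 4 arrays. The remaining 3, br, tai and ftz-f1, are those given above. With the reverse-label arrays turned ImpE2 stood at 0.03, ImpE3 at 0.01 and Eip63E at -0.07.

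Yolk formation in adult females answers to both hormones. Of 9 genes of yolk proteins and uptake 4 were measured, with 0 called and apolpp, the lipophorin precursor, at an unadjusted limma p under 0.05. It stood at -0.54 ± 0.41 (SD, n = 2 pools; limma, adjusted p = 0.552), with pools at -0.25 and -0.83, and at 0.02 once the reverse-label arrays were turned. The lipophorin receptor genes LpR2 and LpR1 stood at 0.29 and 0.02, and the yolk receptor gene yl at -0.01. The yolk protein genes were not measured under their own symbols here.

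**Figure D4:**
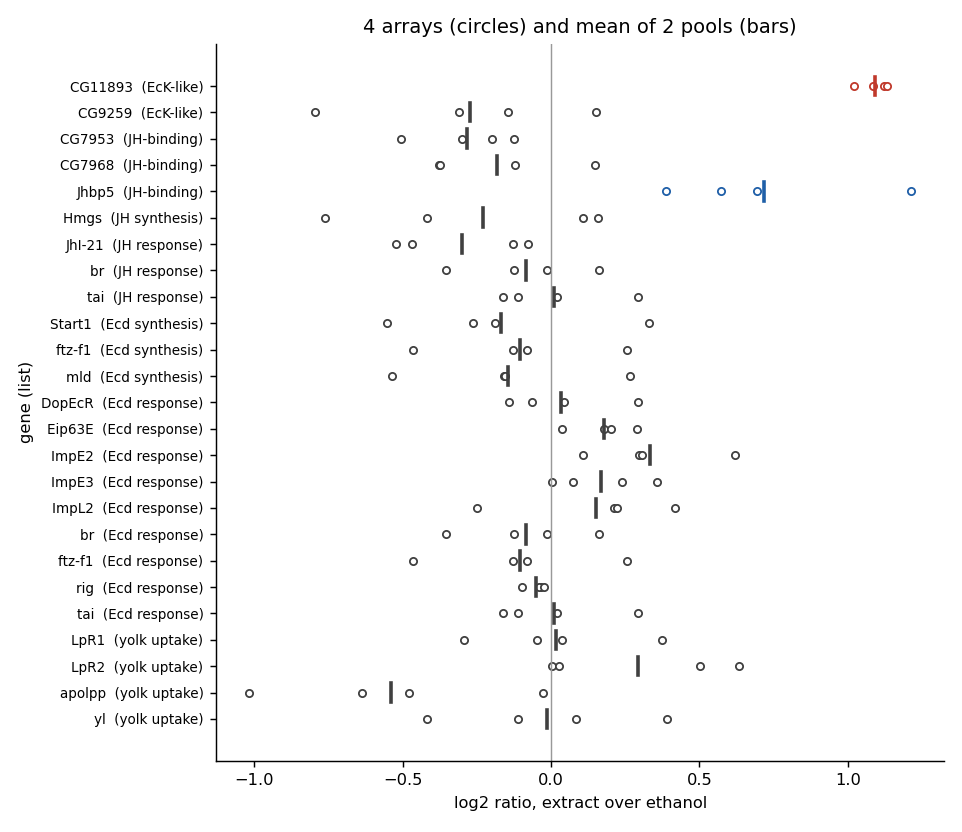
Log2 ratio of extract over ethanol (horizontal axis) for CG11893, Jhbp5 and the measured genes of the hormone and yolk lists (vertical axis, list in brackets), with a circle for each of 4 arrays and a bar at the mean of the pools. The genes br, ftz-f1 and tai are drawn in both lists that hold them. The means of CG11893 at 1.09 and Jhbp5 at 0.72 lie to the right of the highest other mean, ImpE2 at 0.33. Nothing is read from this gap, since CG11893 and Jhbp5 were chosen for their high ratios.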

How the data were processed

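The authors deposited 1 log ratio, read here as log2, per spot for 16896 spots on each of 4 two-dye arrays, with no missing value. Log base, numerator, scanner, background correction, normalization and spot filters are not given in the sources used here; base 2 and channel 2 (extract) over channel 1 (ethanol) were assumed. Signal over background was not used here, and the number of arrays limits the precision.

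Each array was centred on its median. The platform annotation names 1 gene for 5666 spots (33.5%), several for 152 and none for 11078; all 5666 symbols matched RefSeq's table of assembly GCF_000001215.4. Spots of a gene were averaged, then the 2 arrays of a pool, since a dye swap repeats the same RNA. The 13607 features were tested against 0, two-sided, with limma 3.58.1 in R 4.3.3 and Benjamini-Hochberg adjustment at 0.05. P-values rest on the spread between 2 pools, which may be technical, and mostly on the spread shared across features, with 1 residual and 8.19 prior degrees of freedom. On data simulated with the spread fitted here, the fit recovered most planted changes but made more false calls than 0.05 allows. Far more features were changed there than the 6 called here, which makes the adjusted threshold easier to pass. That recovery therefore does not show that a 2-fold change would be called in these data.

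The members and 7 gene lists were chosen with earlier results of these data known, the lists from general knowledge, and matched by symbol or by a synonym of 1 gene. Named genes were the members, all measured list genes, the 5 genes nearest to each member over 4 arrays, and measured genes among the 5 on each side on the chromosome. Genes next in rank, the nearest measured genes beyond those and the spread over arrays were added after the values were seen. No sequences were used here. Alternatives were each array left out, the reverse-label arrays turned, no centring, equal scaling, genes alone, a replicate block and the median of spots.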

Additional observations from a re-analysis of the deposited data

Results flagged for a closer look

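Of the 34 genes given by a rule above, 1 had a single array well away from its other arrays. For 4 independent values about 1 in 20 would by chance, or 1.7 genes. That rate does not strictly hold here, since the 4 arrays repeat 2 pools and some of the genes were picked on these same values. MED30, among the genes nearest to Jhbp5, stood at 0.78 on the Cy5 array of replicate 1, with 0.44 to 0.49 on the others. Jhbp5 was also highest on that array, at 1.21, and MED30 was picked for its likeness to Jhbp5, so nothing is read from this flag. Neither CG11893 nor Jhbp5 had such an array.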

How the results depend on the processing

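CG11893 and Jhbp5 moved by less than 1 SD between pools under no centring, equal scaling, the median of spots, and without any 1 array. Without 1 pool they equal the other pool's value, given in the report; with 2 pools that shift is a fixed part of the SD and says nothing about stability. With the reverse-label arrays turned they stood at -0.013 and -0.0835, and the value of Jhbp5 is that of the Jhbp symbols as a whole. The 6 calls over all features became 42 with arrays scaled to equal spread and 10 with genes of 1 symbol alone. They became 12 with 4 arrays and the replicate block, and 0 once the reverse-label arrays were turned. Before any such change 999 features had an unadjusted limma p under 0.05, against 647 with the reverse-label arrays turned. Without 1 array the number of calls ran from 0 to 11. The 0 came without the Cy3 array of replicate 3, where 835 features had such a p, and the 11 without the Cy5 array of replicate 1. Of the 20 other hormone and yolk genes, 0 were called by limma under any of these settings, with 0 to 5 at an unadjusted p under 0.05. Of 32 other genes given by a rule, 9 changed sign without 1 of the arrays and 19 with the reverse-label arrays turned. Under no centring or equal scaling 0 did so. These counts were not made over all genes. The causes were not tested. Lists built by protein similarity were not run, since no protein sequences were used here. Each ratio already pairs an extract RNA with its control RNA on 1 array; the replicate block joins the arrays of a replicate, with a correlation of -0.244.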
